A study of Homo sapiens with 5 samples.

Results

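The 632 regions described here are distal sites in SNU638 cells at which a BRG1 peak and an NRF2 peak shared sequence. They were chosen by their peak calls: a BRG1 peak entered when it lay over 1 kb from the 5′ end of every protein-coding transcript of GENCODE v44, shared at least 1 bp with an NRF2 peak, and shared no base with an ACTL6A peak or a peak of the second IgG library. The 48793 BRG1 peaks on the numbered and sex chromosomes held 33628 distal peaks, so the sites were 1.88% of the distal ones. Overlap of the antibodies and distance to coding starts are therefore what selected the sites, and values of BRG1 and NRF2 signal are given as a description. The members nearest to the distance limit lay 1011 bp from a start of GCN1, 1012 bp from GLRX and 1030 bp from HMGXB3. The BRG1 and NRF2 peaks closest to it on the other side lay 979 bp from DDAH1, 991 bp from REPIN1 and 992 bp from MGAT4B.

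SNU638 is a human gastric carcinoma cell line. CUT&Tag, in which an antibody directs a tagmenting transposase to the sites of a chromatin protein, was run on untreated cells with anti-BRG1, anti-ACTL6A and anti-NRF2 antibodies and with control IgG. The files hold 1 peak list for each of the 3 antibodies and 2 for IgG, with 48793 BRG1, 23917 ACTL6A, 9045 NRF2, 11 first IgG and 1746 second IgG peaks. No antibody had a replicate library, so no difference below can be set against the spread between replicates, and every interval covers counting error only and treats neighbouring peaks as independent.

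BRG1 is one of the alternative ATPases of the SWI/SNF complexes, which slide and evict nucleosomes, and ACTL6A is an actin-related subunit of the same complexes. NRF2 is a basic leucine zipper factor that KEAP1 keeps low in unstressed cells. With a small MAF partner it binds antioxidant response elements (AREs), whose core reads TGACNNNGC on either strand. AP-1 dimers of the FOS and JUN families bind the related sequence TGANTCA, and some AREs contain an AP-1 site.

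An ARE core lay within 100 bp of the BRG1 summit at 76 sites (12.0%), near the background of 11.9% over all distal BRG1 peaks. Among those eligible for printing, the 6 with the highest NRF2 −log10 q are shown on the plus strand of GRCh38, to show how the motif sits in the summit window. Each line is the 200 bp centred on the BRG1 summit, and capitals mark TGACNNNGC, together with any TGANTCA. The windows are chr1:155001065-155001264 in an exon of a non-coding transcript 1088 bp from a start of ZBTB7B, chr11:65419170-65419369 outside protein-coding genes, 32022 bp from FRMD8, chr1:58903742-58903941 119460 bp from JUN at the start of LINC02777, chr20:26009968-26010167 in an exon of a long non-coding RNA (lncRNA), and chr17:43273757-43273956 and chr17:43234516-43234715 in the U2 gene array inside CCDC200.
ZBTB7B site: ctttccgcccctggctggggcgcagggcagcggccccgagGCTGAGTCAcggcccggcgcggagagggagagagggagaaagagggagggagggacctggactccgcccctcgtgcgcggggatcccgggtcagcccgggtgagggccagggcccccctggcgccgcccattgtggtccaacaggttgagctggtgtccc
FRMD8 site: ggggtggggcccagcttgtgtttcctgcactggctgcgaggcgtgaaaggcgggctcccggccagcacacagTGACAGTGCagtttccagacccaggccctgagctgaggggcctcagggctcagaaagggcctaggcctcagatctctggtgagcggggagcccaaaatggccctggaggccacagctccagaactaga
JUN site: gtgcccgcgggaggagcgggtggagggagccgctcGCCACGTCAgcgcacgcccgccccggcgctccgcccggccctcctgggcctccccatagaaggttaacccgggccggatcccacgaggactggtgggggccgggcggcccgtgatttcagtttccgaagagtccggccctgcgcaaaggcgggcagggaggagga
ZNF337 site: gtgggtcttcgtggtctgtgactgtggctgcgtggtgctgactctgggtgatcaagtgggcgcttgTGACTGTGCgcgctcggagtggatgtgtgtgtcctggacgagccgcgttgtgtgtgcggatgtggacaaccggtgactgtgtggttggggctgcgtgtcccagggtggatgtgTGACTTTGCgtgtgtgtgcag
U2 array, distal copy: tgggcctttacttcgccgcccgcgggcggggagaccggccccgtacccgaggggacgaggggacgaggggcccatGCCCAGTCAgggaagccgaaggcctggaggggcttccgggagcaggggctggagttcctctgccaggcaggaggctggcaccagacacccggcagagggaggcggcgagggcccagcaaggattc
U2 array, RNU2-1 copy: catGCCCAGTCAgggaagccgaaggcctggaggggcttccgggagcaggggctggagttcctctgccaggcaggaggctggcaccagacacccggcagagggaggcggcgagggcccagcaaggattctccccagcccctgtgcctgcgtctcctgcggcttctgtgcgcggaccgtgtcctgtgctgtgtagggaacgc
The U2 windows carry the same match, TGACTGGGC on the minus strand, 21 bp from the BRG1 summit in the first and 93 bp from it in the second, and are near-identical repeat copies rather than independent examples. The ZBTB7B window holds TGACTCAGC, which matches both patterns at once.

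Other windows held an AP-1 site without an ARE core. The 4 of these with the highest NRF2 −log10 q are shown in the same way, with TGANTCA in capitals. The windows are chr5:98309857-98310056 outside protein-coding genes, 459183 bp from RGMB, chr1:112394255-112394454 outside protein-coding genes, 1411 bp from a start of CTTNBP2NL, chr12:13098680-13098879 in overlapping introns of GSG1 and FAM234B, and chr12:30795295-30795494 in an intron of CAPRIN2 at the start of a lncRNA.
RGMB site: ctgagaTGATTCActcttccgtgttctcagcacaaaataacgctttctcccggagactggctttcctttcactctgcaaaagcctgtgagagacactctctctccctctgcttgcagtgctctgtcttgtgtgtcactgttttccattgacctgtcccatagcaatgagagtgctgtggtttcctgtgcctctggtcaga
CTTNBP2NL site: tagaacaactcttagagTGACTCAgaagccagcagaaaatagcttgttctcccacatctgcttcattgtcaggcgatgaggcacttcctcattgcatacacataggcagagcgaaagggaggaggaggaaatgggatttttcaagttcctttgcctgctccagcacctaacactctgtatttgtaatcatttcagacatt
GSG1 site: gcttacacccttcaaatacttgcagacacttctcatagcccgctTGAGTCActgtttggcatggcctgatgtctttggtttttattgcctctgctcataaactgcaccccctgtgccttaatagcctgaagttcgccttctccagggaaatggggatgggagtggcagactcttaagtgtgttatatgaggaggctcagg
CAPRIN2 site: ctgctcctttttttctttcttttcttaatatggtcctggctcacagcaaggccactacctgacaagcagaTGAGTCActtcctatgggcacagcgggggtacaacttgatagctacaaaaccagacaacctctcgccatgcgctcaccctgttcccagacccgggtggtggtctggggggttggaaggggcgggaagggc
The AP-1 match lay 27 to 91 bp from the BRG1 summit in these windows. All 4 had a single-copy sequence.

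Of the 100 sites with the highest NRF2 −log10 q, 21 lay within 1 kb of a small structural RNA gene. The share was 8.54% over all sites and 1.08% over all distal BRG1 peaks. Of the same 100 sites, 41 had a summit window repeated in the genome and 9 had a peak of the second IgG within 1 kb. The windows below, picked after their values were seen, show what the peaks covered at such genes. Capitals mark the annotated gene. The windows are chr17:43233752-43233951 over RNU2-1, a gene of the U2 RNA of the spliceosome, and chr6:28896234-28896433 at TRL-CAA1-1, a leucine tRNA gene.
RNU2-1: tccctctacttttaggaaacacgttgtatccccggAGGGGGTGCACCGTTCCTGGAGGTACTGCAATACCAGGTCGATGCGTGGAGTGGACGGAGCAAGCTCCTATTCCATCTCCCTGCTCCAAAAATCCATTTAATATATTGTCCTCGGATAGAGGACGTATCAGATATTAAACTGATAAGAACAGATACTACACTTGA
TRL-CAA1-1: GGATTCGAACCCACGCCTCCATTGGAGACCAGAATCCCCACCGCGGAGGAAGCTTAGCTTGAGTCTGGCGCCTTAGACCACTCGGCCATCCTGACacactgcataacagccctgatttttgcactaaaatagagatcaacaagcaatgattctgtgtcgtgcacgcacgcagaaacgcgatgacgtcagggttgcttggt
The 31-base words of the U2 window occurred at a median of 14 places in the genome, so the copy of origin of a fragment there is uncertain, whereas the tRNA window was single-copy.

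The site upstream of HMOX1, which encodes heme oxygenase 1 and is a well-known NRF2 target, is printed because its BRG1 peak held 4 ARE cores in a row, at steps of 29 bp. The 176 bp stretch is chr22:35371979-35372154, outside protein-coding genes at the start of a lncRNA (ENSG00000282602), and was also picked after its values were seen. Capitals mark TGACNNNGC on the minus strand.
HMOX1 site: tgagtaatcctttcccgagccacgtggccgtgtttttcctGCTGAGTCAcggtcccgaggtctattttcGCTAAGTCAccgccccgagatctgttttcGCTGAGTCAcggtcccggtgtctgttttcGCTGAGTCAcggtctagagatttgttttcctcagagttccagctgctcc
The match was TGACTCAGC in 3 of the 4 and TGACTTAGC in the other. They lay 265 to 352 bp from the BRG1 summit and 139 to 226 bp from the NRF2 summit, so the summit windows searched for all sites missed them. The NRF2 peak ended at chr22:35372088, so the last of the 4, which began at 35372106, lay outside it.

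Fragment numbers over each summit were worked back from the values of the peak caller, and at the 632 sites BRG1 ranged from 3 to 167 fragments with a median of 13 (quartiles 7 and 25.25). NRF2 ranged from 8 to 260 with a median of 17 (quartiles 13 and 23). The median BRG1 peak rose 5.22-fold over the caller's expectation and the median NRF2 peak 3.99-fold. Low counts were common, since 225 sites had under 10 BRG1 fragments and only 171 sites reached a −log10 q of 5 for both proteins. Among the other distal BRG1 peaks, the median was 7 fragments at the 27379 that overlapped no other list (BRG1 alone), 15 at the 4539 with ACTL6A only, and 34 at the 754 with ACTL6A and NRF2. Peak width followed the same order, with 279 bp at the median site against 191 bp for BRG1 alone and 539.5 bp for the peaks with all 3 proteins.

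How often a distal BRG1 peak shared sequence with NRF2 rose with its BRG1 signal. Of the 28011 distal peaks free of ACTL6A and the second IgG, 2.26% (Wilson 95% interval 2.09 to 2.44) overlapped NRF2. When all distal peaks were cut by BRG1 fragments into 5 equal classes, the share was 0.672% in the lowest class (3 to 4 fragments), 1.52% in the middle class (6 to 9) and 7.38% in the highest (15 to 309). The highest class alone supplied 277 of the sites. Among the 5293 distal peaks with ACTL6A and free of the second IgG, the share was 3.04% in the lowest class and 21.9% in the highest. It was 14.2% (13.3 to 15.2) over all of these, so the rise was not particular to peaks without ACTL6A. What part the depth of the libraries plays in this trend was not tested.

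The overlap that the rule asked for limits how far apart BRG1 and NRF2 summits can lie, so their distance is a description. The summits rarely fell on the same position. The distance between them had a median of 163.5 bp and ran from 0 to 1762 bp. They lay within 100 bp of each other at 219 sites and over 500 bp apart at 46, and the BRG1 summit fell inside the NRF2 peak at 445 sites. The median distance was 130.5 bp for the distal peaks that also had ACTL6A and 178 bp for the 1372 peaks with BRG1 and NRF2 alone at coding starts. The shared stretch was 2 to 1049 bp long with a median of 193 bp, and 55 sites shared under 50 bp. The sites drew on 606 NRF2 peaks, 17 sites had an NRF2 peak that itself reached within 1 kb of a coding start, and the NRF2 peak of 72 sites touched an ACTL6A peak elsewhere along its length.

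Freedom from ACTL6A and IgG held for the BRG1 peak itself but not always for its surroundings. An ACTL6A peak lay within 1 kb of 124 sites (19.6%), compared with 5.17% of the BRG1-alone peaks. The median distance to the nearest ACTL6A peak was 11479 bp. A peak of the second IgG lay within 1 kb of 20 sites, and at 9 sites the NRF2 peak itself overlapped one. What part IgG background plays in those NRF2 calls was not tested. None of the sites overlapped a peak of the first IgG list, which held only 11 peaks.

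The sites were less often inside genes and more often at starts of non-coding transcripts than BRG1 alone, and the distal peaks with all 3 proteins showed both differences as well. A protein-coding gene contained the summit of 264 sites (41.8%, interval 38.0 to 45.7), against 54.1% for BRG1 alone, 35.9% (32.6 to 39.4) for all 3 proteins and a background of 52.5% over all distal BRG1 peaks. The difference from BRG1 alone was −12.4 percentage points (Newcombe 95% interval −16.2 to −8.45). A start of a non-protein-coding transcript lay within 1 kb of 223 sites (35.3%, interval 31.7 to 39.1), against 15.2% for BRG1 alone, 19.9% for BRG1 with ACTL6A, 44.7% (41.2 to 48.3) for all 3 proteins and a background of 16.9%. This difference from BRG1 alone was 20.1 points (16.4 to 23.9). Weighting the BRG1-alone peaks to the fragment counts of the sites gave 19.5%, and weighting them to the GC content of the sites gave 19.0%, both below the lower bound for the sites.

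The excess grew with BRG1 signal. In the lowest of the 5 classes of fragments 4.65% of 43 sites and 10.2% of the BRG1-alone peaks were at a non-coding start, with overlapping intervals. In the highest class the shares were 50.2% (44.3 to 56.0) of 277 sites and 24.8% (23.4 to 26.2) of 3478 BRG1-alone peaks. The median distance to a coding start was 19730.5 bp for the sites and 20305 bp for BRG1 alone, but the sites were more frequent close to starts. At 1 to 2 kb lay 9.02% (7.03 to 11.5) of sites against 5.56% (5.29 to 5.84) of BRG1-alone peaks, and at 2 to 5 kb 12.7% (10.3 to 15.5) against 9.88% (9.54 to 10.2). Over 100 kb away lay 92 sites (14.6%) against 13.4%. The share at a non-coding start was 33.3% at 1 to 2 kb and 34.8% beyond 100 kb for the sites, and 28.2% and 10.9% for BRG1 alone.

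Long non-coding RNAs accounted for most of these starts. A lncRNA start was within 1 kb of 130 sites (20.6%, 17.6 to 23.9) and of 5.78% of the BRG1-alone peaks, a difference of 14.8 points (11.8 to 18.1). The share was higher still, at 31.4% (28.2 to 34.8), for the peaks with all 3 proteins, and was 10.2% for BRG1 with ACTL6A. Of the 130 sites, 104 had single-copy windows. Ordered by NRF2 −log10 q, the first of these 104 with a symbol were HCG14, LINC02693, LINC02777, MUC12-AS1 and CLASP1-AS1, named after their values were seen. The HCG14 peak was also the TRL-CAA1-1 peak, and the CLASP1-AS1 peak also covered RNU4ATAC, a small nuclear RNA gene. The site at LINC02777 had 17 BRG1 fragments against 0.742 expected and 31 NRF2 fragments against 4.10 expected. The nearest coding gene there was JUN, an AP-1 subunit, 119460 bp away. At LINC02693 the counts were 15 BRG1 fragments against 0.602 expected and 25 NRF2 fragments against 1.93. MUC12-AS1, in the mucin cluster of chromosome 7, had 11 BRG1 and 37 NRF2 fragments, 2646 bp from a start of MUC17, a membrane mucin. Pseudogene starts followed the same direction, with 7.44% of sites, 6.10% of the peaks with all 3 proteins and 2.55% of BRG1-alone peaks. Other starts of coding genes, such as retained introns, did not separate the sites from BRG1 alone (7.12% against 6.55%, difference 0.568 points, −1.21 to 2.86).

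**Figure D1:**
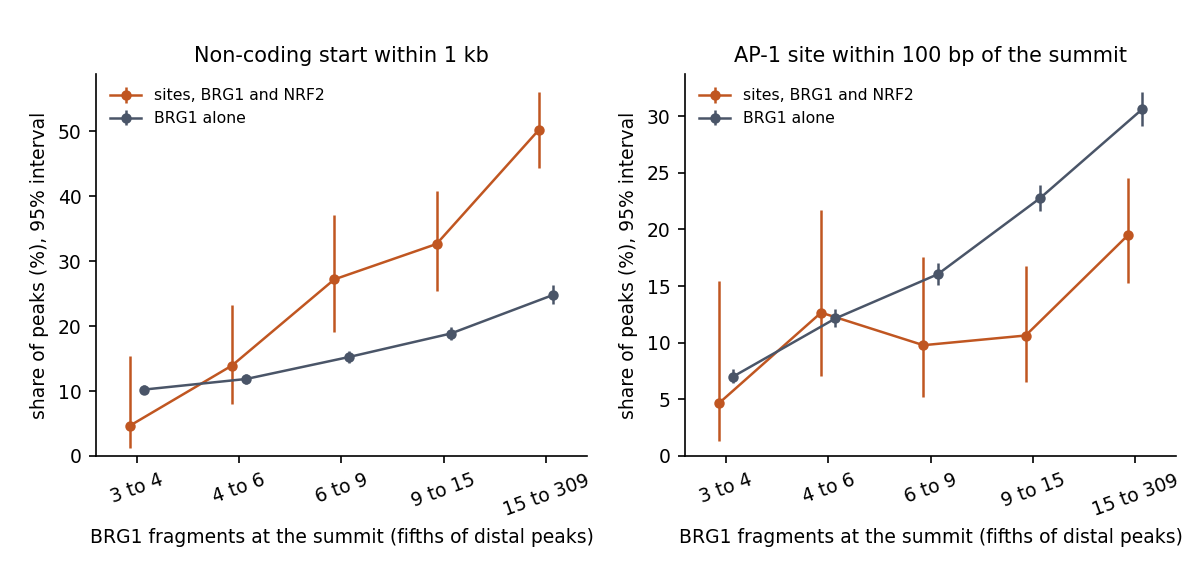
Share of sites and of BRG1-alone peaks (percent, vertical, Wilson 95% intervals) by class of BRG1 fragments at the summit (horizontal, 5 equal classes with tied counts split between neighbours), for non-coding starts on the left and AP-1 sites on the right. In the upper 3 classes the sites lie above BRG1 alone for non-coding starts and below it for AP-1 sites.

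Genes of small structural RNAs lay at 54 sites (8.54%, 6.61 to 11.0), against 0.683% of BRG1-alone peaks and a background of 1.08%. These comprised 22 sites at snRNA genes, 6 at rRNA genes, 5 at snoRNA genes and 21 at tRNA genes, all within 1 kb. The share was 8.09% (6.35 to 10.3) for the distal peaks with all 3 proteins and 1.21% for those with ACTL6A and no NRF2. BRG1 fragments at the 54 sites had a median of 31 and NRF2 fragments one of 27.5, and 30 of the 54 had repeated windows. Across all sites 155 had a summit window whose 31-base words occurred at a median of 2 or more places (24.5%, 21.3 to 28.0), against 12.8% for BRG1 alone and a background of 14.4%. The share of repeated windows was 23.6% (20.7 to 26.8) for the peaks with all 3 proteins and 16.9% for BRG1 with ACTL6A. What part read placement between copies plays in these calls was not tested.

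The U2 array on chromosome 17 was the densest location. Its mapped region of 70445 bp, chr17:43231787-43302231, held 13 snRNA genes and 11 sites among 36 BRG1, 15 NRF2 and 19 ACTL6A peaks, with no peak in either IgG list. BRG1 fragments at the 11 sites ran from 47 to 131 against 16.7 to 29.8 expected, and NRF2 fragments from 36 to 100 against 11.9 to 19.0 expected. Each site was thus at least 2.51-fold over expectation for BRG1 and 2.10-fold for NRF2. The site with the highest NRF2 value had 82 BRG1 fragments and 100 NRF2 fragments at a −log10 q of 48.1, at chr17:43231502-43231825. The 31-base words of the windows occurred at a median of 9 to 14 places.

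**Figure D2:**
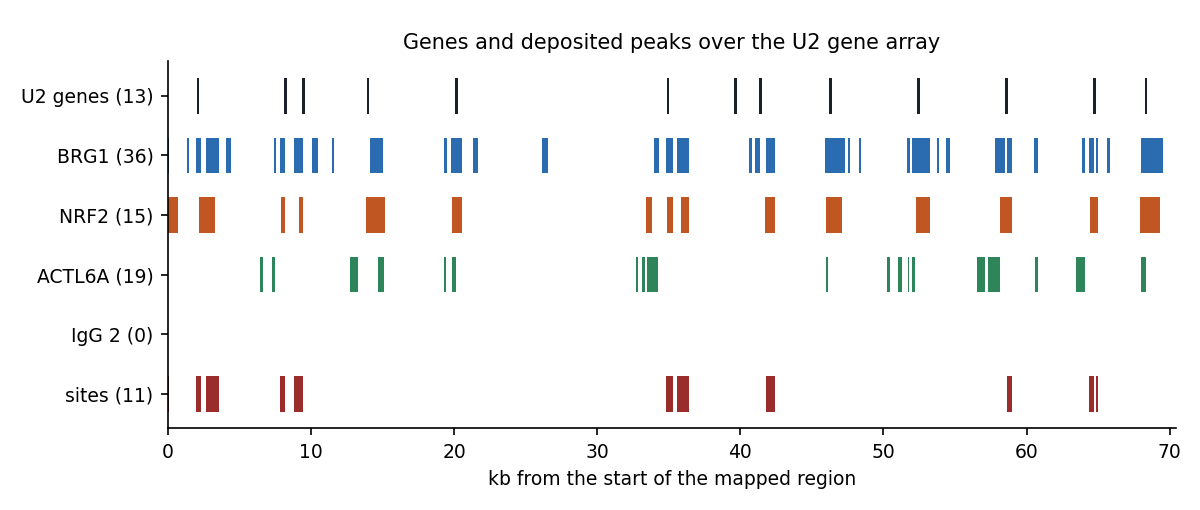
U2 genes, the peaks of each deposited list and the 11 sites along the mapped region (horizontal, kb from its start, drawn to scale), with the number of items on each track in brackets; the site and BRG1 peak at 0 kb lie mostly left of the plotted range. BRG1 and NRF2 peaks recur beside the genes, ACTL6A peaks are interspersed, and the IgG 2 track is empty.

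Peaks of the second IgG occurred at the ribosomal RNA repeats. Over the 5S array on chromosome 1, the 17 genes and 5 sites came with 6 peaks of the second IgG. BRG1 fragments there were 43 to 62 against 15.5 to 21.9 expected, and NRF2 43 to 55 against 18.9 to 22.7, at NRF2 folds of 1.86 to 2.49. A separate site 624 bp from RNA5SP19, a 5S pseudogene, had the highest NRF2 −log10 q of all sites at 71.9, with 105 NRF2 fragments against 8.18 expected and 23 BRG1 fragments against 2.09, and a peak of the second IgG lay within 1 kb of it. On chromosome 21, 6 sites fell within 25 kb of the 5.8S ribosomal RNA genes, with 21 to 167 BRG1 and 115 to 260 NRF2 fragments, and 4 of the 6 had an IgG 2 peak within 1 kb. These ribosomal repeats are incomplete in the assembly, and expected counts there reached 68.2 for BRG1 and 118 for NRF2.

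Spliceosomal and nucleolar RNA genes outside the U2 and ribosomal RNA repeats also had sites, some of them in repeated windows. SNORD3A and SNORD3B-1, copies of the U3 RNA that processes ribosomal RNA, had 77 and 87 NRF2 fragments against 7.94 and 12.4 expected, with 34 and 32 BRG1 fragments. Both windows were repeated, at a median of 5 places, and both sites were among the 12 with the highest NRF2 −log10 q. Sites at genes of the U1 family, named RNU1 or RNVU1, numbered 9. Of these, RNVU1-14 had 27 NRF2 and 20 BRG1 fragments, and RNU1-28P had 21 and 57, both in repeated windows. The minor spliceosome RNAs RNU4ATAC and RNU6ATAC lay in single-copy windows. RNU4ATAC had 18 BRG1 fragments against 2.38 expected and 29 NRF2 fragments against 4.02, and RNU6ATAC had 24 against 2.71 and 33 against 7.60.

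The tRNA genes gave the small RNA sites least affected by repeated sequence, since 3 of the 21 had repeated windows. TRL-CAA1-1 had 37 NRF2 fragments against 4.69 expected and 14 BRG1 fragments against 1.46. TRT-TGT3-1, a threonine tRNA gene, had 27 against 2.94 and 15 against 2.17. TRA-TGC4-1, an alanine tRNA gene, had the most BRG1 fragments among single-copy tRNA windows, 48 against 3.72, with 28 NRF2 fragments against 4.52. At the lower end TRI-AAT5-2 had 9 NRF2 fragments against 1.97 expected.

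Motif content at the summits did not set the sites apart for AREs. The core TGACNNNGC was present in 12.0% of the 632 windows (9.72 to 14.8), against 11.8% for BRG1 alone and a background of 11.9% over all distal BRG1 peaks, a difference of 0.199 points (−2.14 to 2.99). It was also in 8.86% of windows centred 1 kb to either side of the sites (7.42 to 10.6). Counted around the NRF2 summit, the share was again 12.0%. Among the 100 sites with the highest NRF2 −log10 q it was 18.0% (11.7 to 26.7). TGANTCA was in 90 windows (14.2%, 11.7 to 17.2), against 16.2% for BRG1 alone, 22.8% for BRG1 alone weighted to the fragment counts of the sites, 12.0% for BRG1 alone weighted to their GC content, and a background of 16.9%. The fragment-weighted share thus lay above the interval of the sites, while the GC-weighted share lay inside it. TGANTCA was in 19.0% (16.3 to 21.9) of the peaks with all 3 proteins and in 22.2% of those with BRG1 and ACTL6A. The share of TGANTCA at the flanks of the sites was 6.25%. In the highest class of BRG1 fragments, 19.5% (15.3 to 24.6) of sites and 30.6% (29.1 to 32.2) of BRG1-alone peaks held it.

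Both motifs occurred together in 19 windows and neither in 485. The composite TGACTCAGC was in 12 windows (1.90%, 1.09 to 3.29) and in 411 of the 27379 BRG1-alone windows, a difference of 0.398 points (−0.426 to 1.79). The nearest ARE core lay a median of 40.5 bp from the BRG1 summit and the nearest AP-1 site a median of 36 bp.

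Of the other motifs searched, some were more frequent and some less frequent at the sites than at BRG1 alone. GGGCGG, the GC box bound by SP factors, was in 188 windows (29.7%, 26.3 to 33.4), against 13.7% for BRG1 alone, 23.1% for BRG1 alone weighted to the GC content of the sites, and a background of 15.1%. CCGGAA, the core of ETS factor sites, was in 49 windows (7.75%, 5.91 to 10.1), against 3.25%, a GC-weighted 4.31% and a background of 3.63%. GCGCNTGCG, the site of NRF1, a respiratory gene factor distinct from NRF2, was in 13 windows (2.06%, 1.21 to 3.49). BRG1 alone had it at 0.515%, or a GC-weighted 1.15%, against a background of 0.69%. The distal peaks with all 3 proteins held these motifs at 36.3% (33.0 to 39.8) for the GC box, 10.1% for the ETS core and 3.85% for the NRF1 site, so none of them was particular to the sites. CpG counts were also higher. They reached 10 or more in 41.0% of sites, 46.2% of the peaks with all 3 proteins and 14.5% of BRG1-alone peaks (29.2% when GC-weighted). The median GC content of the sites was 62% against 57.5% for BRG1 alone. The CCAAT box, another promoter element, went the other way, in 12.8% of sites against 16.6% of BRG1-alone windows (difference −3.77 points, −6.20 to −0.907), against a GC-weighted 13.7% and against 21.9% of the peaks with all 3 proteins. GATA sites (2.37% against 4.54%) and the E-box CAGGTG (17.9% against 28.2%) were also less frequent, and the peaks with all 3 proteins held them at 1.59% and 16.6%. In all 16 patterns were searched on both strands, and a match describes the letters in the window only.

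Ranked by NRF2 −log10 q, 10 of the first 12 sites had repeated windows. Besides those described above they lay nearest to H3-7, ADRA2C, DEFB108B and PRAG1. The H3-7 site had 146 NRF2 fragments against 38.5 expected and only 8 BRG1 fragments, with an IgG 2 peak within 1 kb. The exceptions were the RGMB site, with 57 NRF2 fragments against 5.35 expected and 14 BRG1 fragments against 0.546, and the ZBTB7B site, with 53 against 8.65 and 47 against 7.67. ZBTB7B encodes a zinc finger factor of lymphoid and other lineages, and its site lay 1088 bp from the nearest coding start, just past the limit.

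Ranked by BRG1 −log10 q, the first sites were mostly single-copy and near coding genes. The PIM3 site, 9954 bp from the start of that serine/threonine kinase gene, had 96 BRG1 fragments against 7.20 expected and 23 NRF2 fragments against 5.17, and its window held both motifs. At BCL9, a Wnt pathway cofactor, the site 6515 bp from the start had 55 BRG1 fragments against 2.04 and 14 NRF2 against 2.13. The SFN site (14-3-3 sigma, an epithelial protein) had 77 BRG1 fragments against 7.85, at 1663 bp from the start. The ANXA2 site (annexin A2, a membrane-binding protein) had 67 against 6.27, at 1778 bp, and held an AP-1 site. NRF2 fragments were 23 and 22 at these 2 sites. The remaining 8 of the 12 lay nearest to AGPAT2, COLGALT1, H3-3A, CROCC, TMSB10, PFKP, LONRF1 and RABL2A, with 44 to 75 BRG1 and 13 to 35 NRF2 fragments. Of the 12, 10 had single-copy windows.

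Few genes of the NRF2 pathway and of related groups were near a site, as was the case for genes in general. Over all 19689 genes with a protein-coding transcript, 1094 had a site within 50 kb of a coding start, a background of 5.56%. Of 24 NRF2 targets 1 did, HMOX1 (4.17%), and of 10 NRF2 partners and regulators 1 did, the small MAF gene MAFG (10%). For comparison, 14 of the 24 targets had an NRF2 peak of any kind within 50 kb and 3 had a distal one, against 54.2% and 17.2% of all genes. The count was 3 of 11 AP-1 factors (FOSL1, JUNB and JUND), 2 of 26 SWI/SNF subunits (ACTL6B and BCL7C), 1 of 15 YAP and TEAD pathway genes (CCN1), 1 of 20 epithelial adhesion and keratin genes (PKP3), 2 of 12 gastric cancer oncogenes (ERBB2 and CCND1) and 0 of 23 gastric and gut transcription factors. Together 11 of the 141 listed genes had a site (7.80%), which is near the background.

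The HMOX1 site, chr22:35371676-35372318, lay 8043 bp upstream of the gene and had 20 BRG1 fragments against 1.76 expected and 19 NRF2 fragments, 4.54-fold over expectation. The MAFG site, in an exon of ANAPC11 24535 bp downstream of the MAFG start, had 46 BRG1 fragments against 4.23 and 18 NRF2 against 4.52. It held AP-1 sites and no ARE core. JUNB, an AP-1 subunit, had a site 1976 bp downstream of its start, inside HOOK2, with 36 BRG1 and 26 NRF2 fragments. It held an ARE core, TGACGCAGC, 79 bp from the BRG1 summit and 287 bp from the NRF2 summit. At FOSL1, another AP-1 subunit, the site 7294 bp downstream of the start had 75 NRF2 fragments against 20.3 expected and 45 BRG1 against 12.0, without either motif in its window. JUND, also an AP-1 subunit, had a site 49262 bp downstream of its start, inside PDE4C, with 16 BRG1 and 13 NRF2 fragments. The CCND1 site, inside the gene of that cell cycle cyclin 3004 bp from its start, had 30 BRG1 and 15 NRF2 fragments. Of the SWI/SNF genes, ACTL6B, the neuronal counterpart of ACTL6A, had 7 BRG1 and 18 NRF2 fragments, and BCL7C had 25 and 15. The CCN1 site, 3921 bp upstream of that secreted YAP target, lay inside DDAH1 and had 27 and 19. The 2 PKP3 sites lay 20908 bp upstream and 31042 bp downstream of the start of this desmosomal gene, inside B4GALNT4 and ANO9. They had 14 and 22 BRG1 fragments with 17 and 37 NRF2 fragments, and the window of the downstream site was repeated. The ERBB2 site lay 36529 bp downstream of the receptor gene's start, nearest to GRB7, with 33 BRG1 and 15 NRF2 fragments. Closeness to a gene does not assign a site to it, and expression was not measured in these files.

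Most sites stood alone. When sites were joined across the distance commonly used to stitch enhancers, the 632 sites gave 578 groups, of which 535 held a single site. The largest group held 5 sites and the next 4, in the U2 and 5S arrays. Among the 6 groups of 3, those over RNVU1-19, MIR3648-1 and the remaining U2 copies were in repeated sequence. The group near DUSP5 and SMNDC1 on chromosome 10 (9 to 13 BRG1 fragments) and the one at LINC00963 near NTMT1 on chromosome 9 (19 to 28) were in single-copy sequence. The share of distal BRG1 peaks that were sites ranged from 0.834% on chromosome 13 (0.383 to 1.81) to 2.97% on chromosome 8 (2.16 to 4.06).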

How the data were processed

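CUT&Tag libraries of untreated SNU638 cells were profiled with 5 peak lists. The authors trimmed reads with fastp 0.23.0, mapped them on hg38 using BWA, and took MACS2 peaks with q under 0.05. The control given to the caller is not given in the sources used here. Each deposited peak carries a score, a fold enrichment ratio, and a p-value and q-value as −log10, and the deposited lists hold no library totals. Read totals stated for the libraries were not used here, so signal was not scaled between antibodies. Whole fragments at a summit were solved from the fold, (n + 1)/(expected + 1), and the Poisson p, within 0.001 or 0.002% of the −log10 value. This succeeded for 99.99% of BRG1 and 99.8% of NRF2 peaks.

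Starts, genes and small RNAs came from GENCODE v44, and 465 tRNA genes from RefSeq. A summit window is 200 bp. A window was called repeated when the median of its 31-base words occurred at 2 or more places in GRCh38. Wilson and Newcombe 95% intervals cover counting error only. Python 3.11.15, NumPy 2.4.6, pandas 2.3.3, SciPy 1.17.1, pysam 0.24.0, numba 0.67.0 and matplotlib 3.10.9 were used, and the scripts were tested on simulated data. Members, gene lists and naming rules were chosen with earlier results of these data known. Named genes were those nearest the 12 sites with the highest NRF2 and the 12 with the highest BRG1 −log10 q, listed genes with a site within 50 kb, and genes in the 5 largest groups. Alternatives changed the q threshold, overlap, distance, start set, IgG and ACTL6A filters, motif, window and repeated sequence.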

Additional observations from a re-analysis of the deposited data

How the results depend on the processing

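With both −log10 q values at 5 or more, 171 sites remained, 2.00% of the distal BRG1 peaks of that strength without ACTL6A and IgG 2. Of these 17.5% held TGANTCA, 16.4% TGACNNNGC and 51.5% lay at a non-coding start, the median summit distance was 117 bp and the median BRG1 count 25 fragments. With 50% overlap there were 221 sites (0.789%), 39.4% at a non-coding start, a summit distance of 88 bp and 17 fragments. Beyond 3 kb, 36.2% lay in a coding gene. Beyond 10 kb there were 412 sites, of which 31.1% lay in a coding gene. Measured from the starts of any transcript, there were 409 sites (1.73%), with TGANTCA in 18.6% and 11 fragments. Without ACTL6A within 1 kb the share was 1.92%. Leaving out each IgG list in turn gave 632 to 690 sites, shares of 2.26% to 2.46%, TGANTCA in 13.3% to 14.2%, TGACNNNGC in 11.3% to 12.0%, coding genes at 40.3% to 41.8%, non-coding starts at 35.2% to 35.3%, summit distances of 158 to 163.5 bp and 13 fragments. TGANTCA fell to 9.49% of windows at the NRF2 summit and 9.18% of 100 bp windows, where TGACNNNGC was in 6.65%. TGACNNNGC was in 17.7% of whole peaks, TGANNNNGC in 32.9% of windows and TGACTCA in 11.2%. Genes of any biotype held 65.2% of sites, and coding genes 46.5% of single-copy sites, a setting chosen after seeing the data, as was leaving out IgG 1. The causes were not tested. In all, 58 of 87 values stayed within the interval of the reported value or, for the number of sites, within the ratio allowed. Among these 58 are the values without the first IgG list, which could not move because the rule did not use that list. Adding that list to the rule removed no site, so the values of the sites under that setting could not move either. No paired analysis was possible because no 2 groups of samples share 2 replicate numbers. With 1 library per antibody, absence of an ACTL6A or NRF2 peak means only that none was called at the depth of that library.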
